A study of Mus musculus with 16 samples.

Results

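The genes described are 9 potassium and pacemaker channel genes of the mouse heart, Kcnd2, Kcnd3, Kcnip2, Kcna5, Kcnj2, Kcnq1, Kcnh2, Hcn2 and Hcn4. They were chosen by name for their place in cardiac repolarisation and pacemaking, with earlier results of these data known, and followed in 16 hearts. They are 9 of the 55573 genes in the deposited count table, and all 9 were among the 19955 genes with enough counts to test. The hearts came from male mice that all carried Trbp-Flox/Flox alleles and the aMHC-MerCreMer transgene, in which a tamoxifen-dependent Cre recombinase is driven by the cardiac alpha myosin heavy chain promoter. Mice were injected on 5 days from 4 weeks of age, either with corn oil (control) or with tamoxifen at 30 mg/kg (Trbp-cKO), which deletes Trbp, the RNA-binding protein encoded by Tarbp2, in cardiomyocytes. They then underwent sham surgery or transverse aortic constriction (TAC), in which the aorta is tied around a needle so that the ventricle pumps against a raised pressure. Ventricles were taken about 8 weeks later at about 16 weeks of age. There were 4 hearts in each of the 4 groups, named control sham, control TAC, Trbp-cKO sham and Trbp-cKO TAC. All control hearts received oil and all Trbp-cKO hearts tamoxifen, so the drug and the deletion cannot be told apart in these samples. In whole ventricle, fewer cardiomyocytes and less of a transcript per cardiomyocyte cannot be told apart either.

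Potassium channels carry the outward currents that return the cardiomyocyte to its resting potential after each action potential. Kcnd2 and Kcnd3 encode the Kv4.2 and Kv4.3 pores of the fast transient outward current, which dominates early repolarisation in the mouse, and Kcnip2 encodes KChIP2, the cytoplasmic subunit that assembles with those pores and promotes their surface expression. Kcna5 encodes the Kv1.5 pore of an ultrarapid delayed rectifier, Kcnq1 and Kcnh2 the pores of the slow and rapid delayed rectifiers, and Kcnj2 the Kir2.1 pore of the inward rectifier that sets the resting potential. Hcn2 and Hcn4 encode channels opened by hyperpolarisation that carry the funny current, with Hcn4 best known in the sinoatrial node. Lower potassium currents are a known feature of the hypertrophied and failing heart.

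In the GRCm38 build the genes lie on different chromosomes apart from one pair. Kcnd2 (ENSMUSG00000060882) lies at chr6:21215503-21729805 on the plus strand and Kcna5 (ENSMUSG00000045534), a gene of a single exon, at chr6:126532551-126535412 on the minus strand. Kcnd3 (ENSMUSG00000040896) occupies chr3:105452330-105674002 on the plus strand, and Kcnip2 (ENSMUSG00000025221) occupies chr19:45791839-45816061 on the minus strand. Kcnj2 (ENSMUSG00000041695) is found at chr11:111066164-111076821 on the plus strand and Kcnq1 (ENSMUSG00000009545) at chr7:143106362-143427042, also on the plus strand. Kcnh2 (ENSMUSG00000038319) spans chr5:24319589-24351604 on the minus strand, Hcn2 (ENSMUSG00000020331) chr10:79716634-79736108 and Hcn4 (ENSMUSG00000032338) chr9:58823412-58863175, both on the plus strand. All are annotated as protein coding in GENCODE. Kcnd3 shares 165 bp of exon with the antisense gene Kcnd3os and Kcnq1 shares 121 bp with the antisense gene Kcnq1ot1, and since the strandedness of counting was not stated, reads from those stretches could not be assigned to a strand. The shared stretches are 1.72% and 2.96% of the exon length of Kcnd3 and Kcnq1.

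The 250 bases before the RefSeq start are shown for the 3 genes that passed both thresholds of the test in some comparison, Kcnip2, Hcn2 and Kcnj2, as the stretch from which each transcript is started. They are from RefSeq (GRCm38), are written 5′ to 3′ on the strand of the gene, and end at the base before the start: chr19:45816064-45816313 for Kcnip2 on the minus strand, chr10:79716384-79716633 for Hcn2 and chr11:111065914-111066163 for Kcnj2 on the plus strand. Capitals mark matches on either strand to the GC box GGGCGG, the CACCC element CACCC and the E-box CACGTG.
Kcnip2: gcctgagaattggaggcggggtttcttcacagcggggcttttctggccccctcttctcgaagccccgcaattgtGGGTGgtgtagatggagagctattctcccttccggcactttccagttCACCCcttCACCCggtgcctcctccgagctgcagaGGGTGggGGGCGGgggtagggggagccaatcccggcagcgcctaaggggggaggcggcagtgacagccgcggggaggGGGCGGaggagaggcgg
Hcn2: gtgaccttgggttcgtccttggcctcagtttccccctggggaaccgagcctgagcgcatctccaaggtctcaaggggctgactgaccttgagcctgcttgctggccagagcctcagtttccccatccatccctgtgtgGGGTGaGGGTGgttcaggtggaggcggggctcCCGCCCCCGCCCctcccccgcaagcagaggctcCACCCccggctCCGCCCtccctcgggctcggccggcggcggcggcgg
Kcnj2: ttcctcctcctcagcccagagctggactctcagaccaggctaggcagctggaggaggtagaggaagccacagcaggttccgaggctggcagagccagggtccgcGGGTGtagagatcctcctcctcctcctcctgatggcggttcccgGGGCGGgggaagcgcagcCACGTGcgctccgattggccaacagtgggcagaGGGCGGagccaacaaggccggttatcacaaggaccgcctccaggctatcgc
Kcnip2 held 2 GC boxes and 4 CACCC elements, Hcn2 held 3 and 3, and Kcnj2 held 2 and 1 together with an E-box that starts 84 bases before the start of transcription. Of 32851 RefSeq promoters of the same length, 32.7% held a GC box, 52% a CACCC element and 6.02% an E-box. Promoters were matched for 8 of the 9 genes, and of these 6 held a GC box and 7 a CACCC element. The GC content of the Kcnip2, Hcn2 and Kcnj2 stretches was 66.8%, 70.4% and 65.6%. A search for GATAAG and TATAAA found no match in any of the 8.

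Total counts were 45166994 to 68274222 per heart. Tarbp2 was 30.6 to 33.3 CPM (counts scaled to the size of each library) in control sham hearts and 8.39 to 11.4 in Trbp-cKO sham hearts, and 21.1 to 31.1 against 7.14 to 9.74 after TAC, so the groups did not overlap. Control TAC replicates 1 and 2 stood apart: the mitochondrial chromosome took 38.2% and 38.8% of their counts against 18.2% to 26.3% in the other 14 hearts. A score of 12 cardiomyocyte markers, in standard deviations, was -1.19 and -1.75 in these hearts, and Trbp-cKO TAC replicate 4 was also low at -1.17, against -0.24 to 0.66 in the other 13. A score of circadian clock genes was 1.11 to 2.41 (sham) and -0.22 to 0.01 (TAC) among controls and -1.93 to -1.64 (sham) and -0.99 to 1.79 (TAC) among Trbp-cKO hearts, which separated the groups in sham hearts. The ventricular label was checked against 8 atrial genes. Of these 3, Sln and Bmp10 among them, had too few counts to test, 5 were tested, and all 8 summed to 27.4 to 127 CPM per heart, while the ventricular gene Irx4 was 9.47 to 40.2 CPM.

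**Figure D1:**
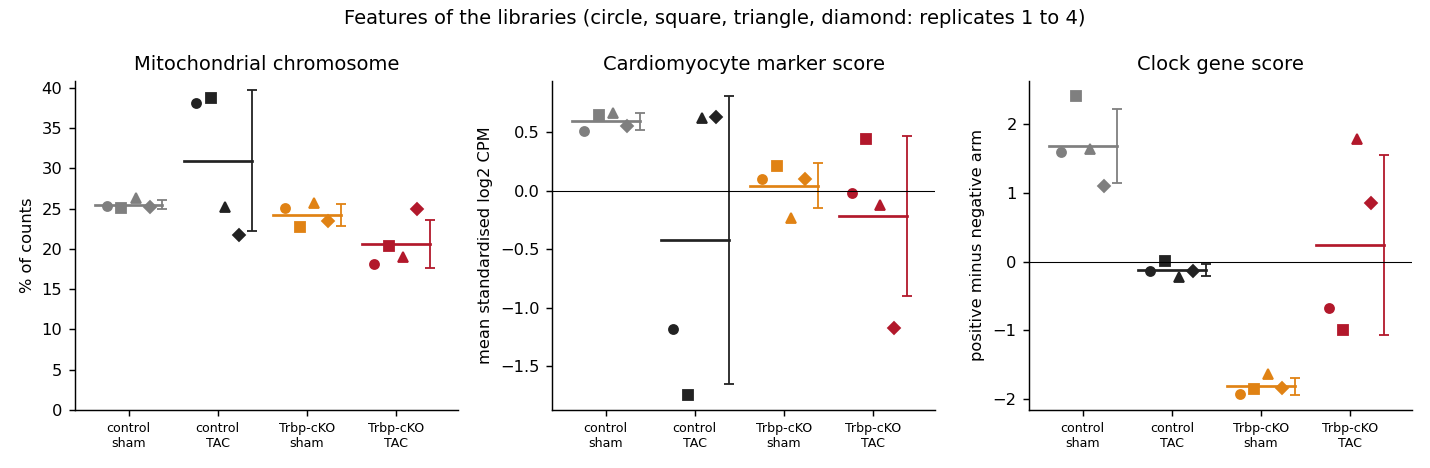
Share of counts from the mitochondrial chromosome (%), cardiomyocyte marker score and clock gene score (both in mean standardised log2 CPM) in each of the 16 hearts, with the group mean (line) and SD (bar). Control TAC replicates 1 and 2 have the highest mitochondrial share, 38.2% and 38.8%, and the lowest cardiomyocyte scores, and the clock score is at least 1.11 in control sham and at most -1.64 in Trbp-cKO sham hearts.

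Levels between genes were compared per length, as CPM per kilobase of exon, in control sham hearts. Kcnip2 was the most abundant at 62.4 ± 5.88 (SD, n = 4), followed by Kcna5 at 15.2 ± 4.30, Hcn2 at 14.1 ± 1.68 and Kcnh2 at 11.4 ± 1.68, and these last 3 neighbours lay within each other's spread or close to it. Kcnq1 stood at 7.00 ± 0.06, Kcnd2 at 4.68 ± 0.29, Kcnj2 at 4.34 ± 0.74 and Kcnd3 at 1.83 ± 0.12, of which Kcnd2 and Kcnj2 did not differ beyond their spread. Hcn4 was the lowest at 0.68 ± 0.05. The auxiliary subunit was thus measured at a higher level per kilobase than either Kv4 pore, and Hcn2 at a higher level than Hcn4. In Trbp-cKO TAC hearts the per-length levels ran from 74.0 ± 30.5 for Kcnip2 to 0.10 ± 0.08 for Hcn4, and Hcn2 at 17.2 ± 5.50 was second.

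**Figure D2:**
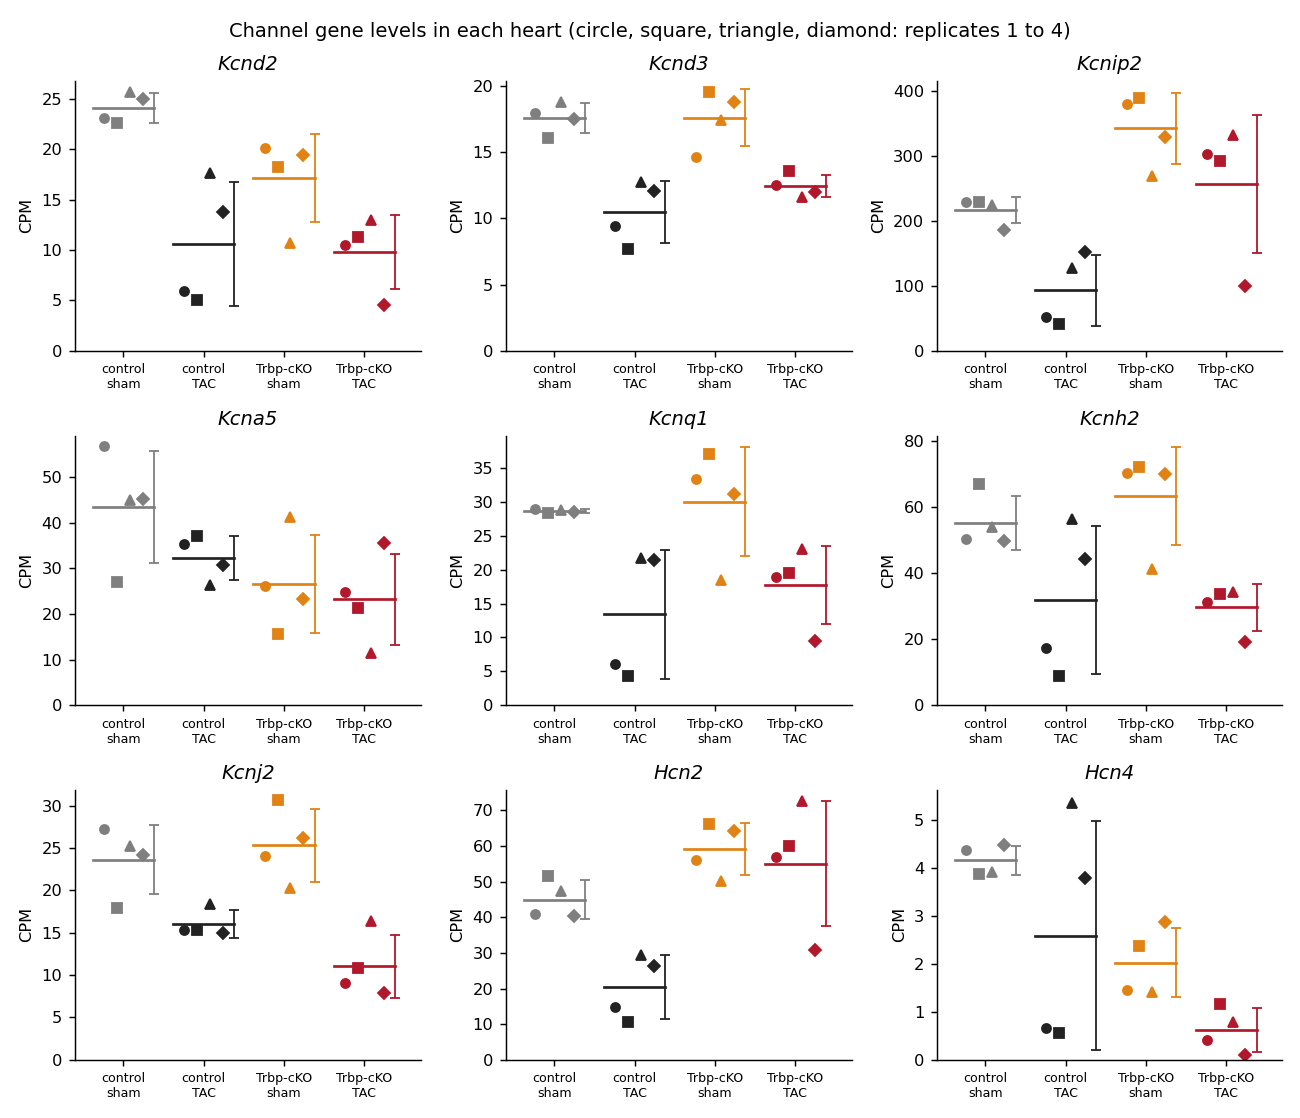
Level of each of the 9 genes (CPM, y axes from 0) in the 16 hearts, with the group mean (line) and SD (bar). Control sham hearts are close together for most genes, control TAC hearts split into replicates 1 and 2 (low) and 3 and 4 for Kcnd2, Kcnip2, Kcnq1, Kcnh2, Hcn2 and Hcn4, and Trbp-cKO TAC replicate 4 is the lowest of its group for 7 of the 9 genes.

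The first comparison asked how pressure overload changed the channel genes in control hearts. Hcn2 fell and was the only gene of the 9 to pass both thresholds, which were a log2 fold change of 0.8 or more in size and an adjusted p no higher than 0.05. Kcnd3 passed the adjusted p alone. The 1 gene of 9 that passed both compares with 3.75% of all genes tested, and the 2 that passed the adjusted p with 6.29%. All 9 log2 fold changes were below 0, with a median of -0.80, where 47.3% of all genes tested were below 0 and their median was 0.02. The count below 0 was 8 of 9 with the cardiomyocyte score in the fit and without control TAC replicates 1 and 2, since Hcn4 was then at 0.15 and 0.14. All 12 cardiomyocyte markers of the score were also below 0 in this comparison, with a median of -0.38, and their part in the result was not tested. The groups did not overlap for 5 of the 9 genes, against 17.4% of all genes. Without control TAC replicate 4 the count of called genes was 5, with Kcnd2, Kcnd3, Kcnip2 and Kcnq1 added to Hcn2, without replicate 3 it was 4, and without Trbp-cKO TAC replicate 4 it was 3, while without both control TAC replicates 1 and 2 it was 0. The share of all genes called was not counted in these fits. These counts therefore show how stable the calls were and not whether the 9 genes stood out.

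Among controls Hcn2 read 40.9, 51.5, 47.3 and 40.3 CPM after sham surgery and 14.9, 10.7, 29.5 and 26.3 after TAC. Every TAC heart was below every sham heart, and TAC replicates 1 and 2 were the lowest. The log2 fold change was -1.14 ± 0.29 (SE), or 2.21-fold lower, with an adjusted p of 0.0304 (edgeR). Without control TAC replicates 1 and 2 it was -0.69 with an adjusted p of 0.3, and leaving out either alone gave -1.02 (adjusted p = 0.107) without replicate 1 and -0.94 (adjusted p = 0.0796) without replicate 2. The adjusted p was also above 0.05 without each of the 4 control sham hearts, from 0.0549 to 0.0826, with the clock score in the fit (0.205) and when only the groups compared were fitted (0.0877). Leaving out 1 heart at a time gave log2 fold changes of -1.38 to -0.94, and the 12 other settings gave -1.17 to -0.66. With the cardiomyocyte score in the fit the log2 fold change was -0.66, below the fold threshold.

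The transient outward current genes were lower in every control TAC heart than in any control sham heart. Kcnd3, the Kv4.3 pore, read 17.98, 16.04, 18.78 and 17.50 CPM in sham and 9.46, 7.66, 12.8 and 12.1 in TAC hearts, a log2 fold change of -0.74 ± 0.14 (SE) with an adjusted p of 0.00815. Kcnd2, the Kv4.2 pore, read 23.1, 22.6, 25.7 and 25.0 CPM in sham and 5.89, 5.08, 17.6 and 13.8 in TAC hearts. Its log2 fold change of -1.18 ± 0.37 (SE) did not pass, with an adjusted p of 0.0668. Kcnip2 read 229, 228, 224 and 186 CPM in sham and 51.9, 41.1, 128 and 151 in TAC hearts, a log2 fold change of -1.22 ± 0.39 (SE) with an adjusted p of 0.0729. Both Kcnd2 and Kcnip2 were called by edgeR's exact test (adjusted p = 0.0334 and 0.0409) and by DESeq2 (0.0181 and 0.0185). For all 3 genes TAC replicates 1 and 2, the hearts with the low cardiomyocyte score, were the lowest. Without both of them the log2 fold changes were -0.62 for Kcnd2 (adjusted p = 0.579), -0.50 for Kcnd3 (adjusted p = 0.0769) and -0.63 for Kcnip2 (adjusted p = 0.586). The part that the composition of these hearts plays in the levels was not tested.

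The delayed and inward rectifier genes did not pass in control hearts. Kcnq1 was 28.4 to 29.0 CPM in control sham hearts, a spread of 0.908% of the mean, and 6.11, 4.34, 21.7 and 21.4 in control TAC hearts, without overlap (log2 fold change -1.09, adjusted p = 0.125). Kcnq1ot1, its antisense partner, was higher in the same hearts, at 22.6 and 30.9 CPM in control TAC replicates 1 and 2 against 5.86 to 12.2 in the other 14. Kcnh2 read 50.2, 67.1, 54.0 and 49.6 CPM in sham and 17.3, 8.92, 56.5 and 44.4 in TAC hearts, so replicates 3 and 4 lay close to or within the sham range and replicates 1 and 2 far below it (adjusted p = 0.222). Over the 12 other settings the log2 fold change of Kcnq1 was -1.19 to -0.41, with adjusted p from 0.0636 to 0.738. That of Kcnh2 was -0.80 in the main fit and -0.89 to -0.13 over the 12 others, with adjusted p from 0.171 to 0.95. Kcnj2 was 17.9 to 27.3 CPM in sham and 14.9 to 18.4 in TAC hearts, overlapping, with an adjusted p of 0.0976. Kcna5 varied most among sham hearts, from 27.1 to 56.9 CPM, and overlapped the TAC range of 26.3 to 37.0. Hcn4, the low pacemaker gene, split the TAC hearts furthest: 0.655, 0.550, 5.37 and 3.79 CPM against 3.88 to 4.48 in sham hearts.

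**Figure D3:**
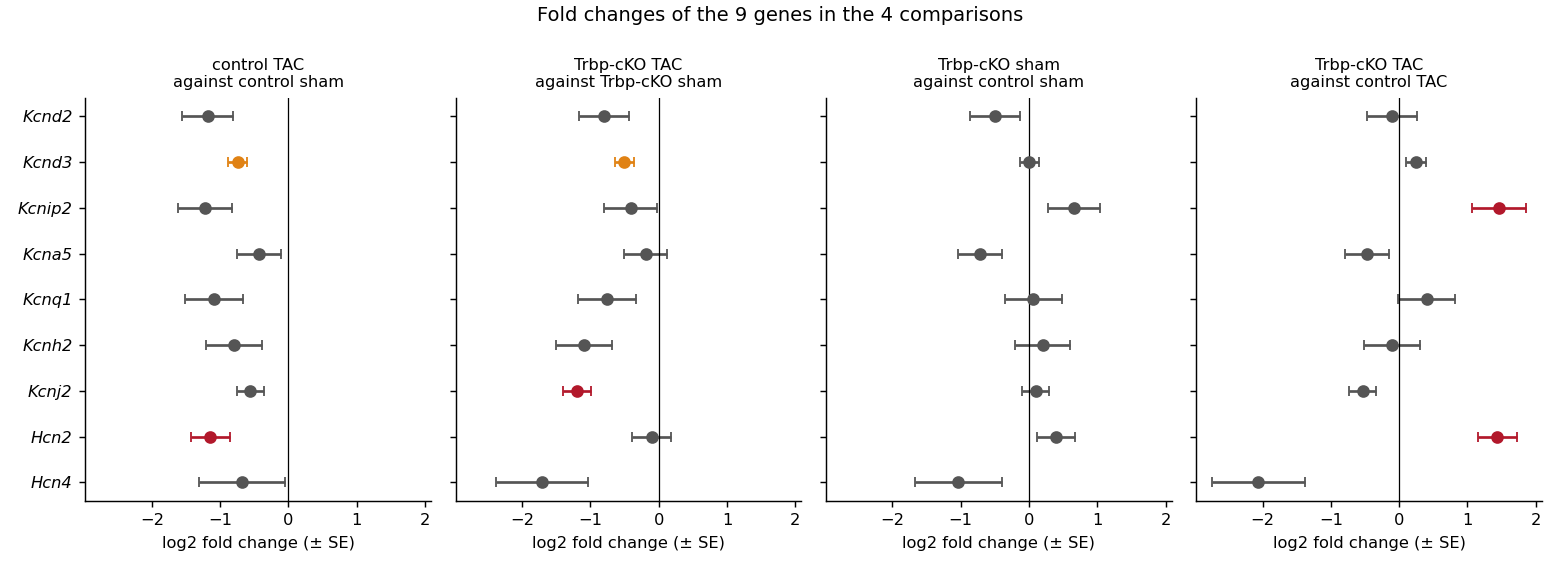
Log2 fold change (x axis) of the 9 genes with its SE (bar) in the 4 comparisons, from the fit of all 16 hearts, on a shared scale. Red marks genes past an adjusted p of 0.05 and a log2 fold change of 0.8 in size, orange those past the adjusted p alone. All points lie below 0 in the TAC comparisons of the left 2 panels, and Kcnip2 (1.47) and Hcn2 (1.44) are the called genes between the TAC genotypes.

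The second comparison asked what deletion of Trbp changed without pressure overload. None of the 9 genes passed the adjusted p between the sham genotypes by edgeR, where 0.967% of all genes tested passed both thresholds and 1.68% the adjusted p at any fold, and 1 of the 9 had an unadjusted p under 0.05, against 13.7% of all genes. DESeq2 also called 0 and edgeR's exact test called 1, Hcn4. The median log2 fold change of the 9 genes was 0.07, against 0.01 over all genes. For 3 genes the groups nonetheless did not overlap, against 14.7% of all genes tested. Kcnip2 was 380.3, 389.7, 269.9 and 329.6 CPM in Trbp-cKO sham hearts, each above the control sham maximum of 229. Its log2 fold change was 0.66 ± 0.39 (SE) with an adjusted p of 0.504. The adjusted p was 0.000137 by edgeR's exact test and 0.0153 when only the groups compared were fitted, with the same log2 fold change of 0.66, below the fold threshold. Kcnd2, whose protein pairs with KChIP2, was on the other side, at 20.1, 18.3, 10.7 and 19.5 CPM against a control sham minimum of 22.6 (log2 fold change -0.49 ± 0.36 SE, adjusted p = 0.631). Hcn4 was 1.45, 2.37, 1.41 and 2.88 CPM, each below the control sham minimum of 3.88, with a log2 fold change of -1.03 ± 0.63 (SE) and an adjusted p of 0.529. Over the 12 other settings its log2 fold change was -1.95 to -0.25, with adjusted p from 0.000997 to 0.894. The exact two-sided permutation p of each of these 3 differences in CPM was 0.0286, the smallest that 4 hearts against 4 can give.

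The remaining 6 genes overlapped between the sham groups. Kcnd3 had nearly the same mean level in both, 17.6 CPM in each, and a log2 fold change of 0.00 ± 0.14 (SE). Hcn2 was 50.3 to 66.2 CPM in Trbp-cKO sham against 40.3 to 51.5 in control sham hearts, so its groups overlapped only between 50.3 and 51.5. Kcna5 was 15.7 to 41.3 CPM against 27.1 to 56.9. Trbp-cKO sham replicate 3 was apart from the others for several genes, with the lowest Kcnd2, Kcnip2, Kcnq1 (18.4 CPM against 31.2 to 37.0) and Kcnh2 (41.3 against 70.01 to 72.14), and it had the lowest cardiomyocyte score of its group, -0.24. The clock score moved with the genotype in sham hearts without overlap: Dbp, a clock output gene, was 153 to 189.7 CPM in Trbp-cKO sham and 21.1 to 37.0 in control sham hearts, and Arntl, of the opposite clock arm, 2.11 to 3.18 against 12.5 to 20.3. With that score in the fit the log2 fold change of Kcnip2 was 0.44 (adjusted p = 0.927) and none of the 9 genes passed. With the cardiomyocyte score in the fit Kcnip2 was at 1.11 with an adjusted p of 0.000564 and was the 1 gene called. That score was 0.51 to 0.66 in control sham and -0.24 to 0.21 in Trbp-cKO sham hearts, without overlap. Of its 12 markers, 2 were themselves called lower between the sham genotypes and 2 between the TAC genotypes. The score was thus not independent of the genotype, here and in the other comparisons that used it.

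The third comparison set Trbp-cKO TAC against control TAC hearts, that is, the deletion under pressure overload. Hcn2 and Kcnip2 rose and were the 2 genes of 9 called, against 2.46% of all genes tested. Hcn2 read 56.8, 60.1, 72.6 and 30.7 CPM in Trbp-cKO TAC hearts, each above the control TAC maximum of 29.5, although the lowest, replicate 4, was above it by little. Its log2 fold change was 1.44 ± 0.29 (SE), or 2.71-fold higher, with an adjusted p of 0.0101. Leaving out control TAC replicates 1 and 2 gave 0.97 with an adjusted p of 0.0488, and each fit without 1 heart kept the call (adjusted p from 0.00244 to 0.0429). The call was lost when only the groups compared were fitted (1.42, adjusted p = 0.149). Hcn2 was the 1 gene of 9 whose groups did not overlap, against 10% of all genes tested.

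Kcnip2 read 303, 293, 333 and 100.3 CPM in Trbp-cKO TAC hearts and 51.9, 41.1, 128 and 151 in control TAC hearts. Replicate 4 of the Trbp-cKO TAC group, the heart with the low cardiomyocyte score, lay inside the control range, and the other 3 were above it by far. The log2 fold change was 1.47 ± 0.39 (SE), or 2.76-fold higher, with an adjusted p of 0.0422. This call was lost when control TAC replicates 1 and 2 were left out together (0.87, adjusted p = 0.195) and in 12 of the 16 fits that each left out 1 heart: any control sham heart, control TAC replicate 1 or 2, Trbp-cKO sham replicate 1, 2 or 4, or Trbp-cKO TAC replicate 1, 2 or 3. Sham hearts are not in this comparison and reach its adjusted p only through the spread, scaling and filter shared by all hearts. Over the 16 the log2 fold changes were 1.21 to 1.81 and the adjusted p from 0.01 to 0.128. The highest of these, 1.81, was the value without control TAC replicate 4, and without Trbp-cKO TAC replicate 4 it was 1.73. The call was also lost, at nearly the same log2 fold change, without a filter on low counts (1.47, adjusted p = 0.0671), with the clock score in the fit (1.49, 0.0569), by edgeR's exact test (1.45, 0.0985) and when only the groups compared were fitted (1.45, 0.245). It was kept by DESeq2 (1.47, adjusted p = 0.00333) and with the cardiomyocyte score in the fit (1.41, adjusted p = 2.12e-05).

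The other 7 genes did not pass between the TAC groups. Kcnd2 was 10.5, 11.3, 13.0 and 4.51 CPM in Trbp-cKO TAC and 5.08 to 17.6 in control TAC hearts (log2 fold change -0.11, adjusted p = 0.897). Kcnd3 was 11.6 to 13.6 against 7.66 to 12.8 CPM. Kcnj2 was 9.11, 10.9, 16.3 and 7.85 CPM against 14.9 to 18.4 (log2 fold change -0.54, adjusted p = 0.131). Hcn4 was 0.42, 1.17, 0.78 and 0.10 CPM, with only 6 counts in the last of these hearts, and control TAC hearts were 0.55 to 5.37 (log2 fold change -2.07 ± 0.68 SE, adjusted p = 0.09). Without control TAC replicates 1 and 2, the 2 hearts in which Hcn4 was lowest, its log2 fold change was -2.89 with an adjusted p of 0.00661, and without replicate 2 alone it was -2.41 with an adjusted p of 0.0494. Hcn4 was also called by DESeq2 (-2.07, adjusted p = 0.0178) and with the cardiomyocyte score in the fit (-1.99, adjusted p = 0.000159). Leaving out 1 heart at a time gave -2.58 to -1.44 for Hcn4, with adjusted p from 0.0494 to 0.203. Over the 12 other settings it was -2.89 to -1.91, with adjusted p from 0.000159 to 0.321. Hcn2 and Hcn4, the pacemaker channel genes, thus had log2 fold changes of opposite sign in this comparison, and whether that of Hcn4 passed depended on the setting.

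The fourth comparison asked how pressure overload changed the genes once Trbp was deleted. Kcnj2, the inward rectifier pore, fell and was the 1 gene of 9 called, against 5.57% of all genes tested, and 2 of the 9, Kcnj2 and Kcnd3, passed the adjusted p at any fold, against 9.94% of all genes. Kcnj2 was 24.1, 30.7, 20.3 and 26.2 CPM in Trbp-cKO sham and 9.11, 10.9, 16.3 and 7.85 in Trbp-cKO TAC hearts, without overlap. Its log2 fold change was -1.20 ± 0.20 (SE), or 2.29-fold lower, with an adjusted p of 0.00135. The call held in each of the 16 fits that left out a heart, with adjusted p from 0.000167 to 0.00665, and under the 12 other settings tried, with adjusted p up to 0.0421. Kcnd3 was 14.7 to 19.6 CPM in sham and 11.6 to 13.6 in TAC hearts, without overlap (log2 fold change -0.50 ± 0.14 SE, adjusted p = 0.0331).

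All 9 log2 fold changes were again below 0 in this comparison, with a median of -0.76, where 50.2% of all genes were below 0 and their median was -0.00. Kcna5 was above 0 without Trbp-cKO sham replicate 3 (0.10), without Trbp-cKO TAC replicate 3 (0.035) and with the clock score in the fit (0.16), and Hcn2 was above 0 without Trbp-cKO TAC replicate 4 (0.093) and with the cardiomyocyte score (0.0097). Of the 12 cardiomyocyte markers 5 were below 0 here, with a median of 0.05. Kcnh2 was 31.3, 33.8, 34.4 and 19.2 CPM in Trbp-cKO TAC hearts, each below the Trbp-cKO sham minimum of 41.3, with a log2 fold change of -1.10 ± 0.41 (SE) and an adjusted p of 0.115. Hcn4 also did not overlap, at 0.10 to 1.17 against 1.41 to 2.88 CPM (log2 fold change -1.71 ± 0.68 SE, adjusted p = 0.136). Without control TAC replicates 1 and 2 Kcnh2 (adjusted p = 0.00257) and Hcn4 (adjusted p = 0.022) passed as well, giving 3 called genes, and Kcnh2 passed without replicate 2 alone (adjusted p = 0.0284). Control TAC hearts are not in this comparison and act on it only through the spread, scaling and filter shared by all hearts. Kcnh2 and Hcn4 were also called by edgeR's exact test (adjusted p = 0.000181 and 0.0312) and with the cardiomyocyte score in the fit (0.000948 and 0.000514). Kcnip2 (-0.41), Hcn2 (-0.10) and Kcna5 (-0.19) had the log2 fold changes nearest 0, with adjusted p from 0.598 to 0.883. In this comparison 4 of the 9 genes did not overlap, against 17.2% of all genes.

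Whether the response to TAC differed between the genotypes was tested by the interaction of deletion and TAC. None of the 9 genes passed by edgeR, where 0.872% of all genes passed both thresholds, 2 of the 9 had an unadjusted p under 0.05 against 15.4% of all genes, and DESeq2 also called 0. The interaction was 1.04 ± 0.40 (SE, log2) for Hcn2 with an adjusted p of 0.227, 0.81 ± 0.55 for Kcnip2 with an adjusted p of 0.509 and -0.63 ± 0.28 for Kcnj2 with an adjusted p of 0.292. By this fit a different response to TAC in the 2 genotypes was not shown for any of the 9, although Hcn2 was called in control and Kcnj2 in Trbp-cKO hearts. With the cardiomyocyte score in the fit the interaction of Hcn4 was -1.74 with an adjusted p of 0.0158 and was called, and that of Hcn2 was 0.67 with an adjusted p of 0.0357, below the fold threshold. In the main fit the interaction of Hcn4 was -1.03 ± 0.92 (SE) with an adjusted p of 0.629. It was -0.028 (adjusted p = 0.997) with the clock score in the fit and -0.40 (adjusted p = 0.828) without control TAC replicate 3. Without control TAC replicates 1 and 2 it was -1.85 (adjusted p = 0.249).

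The balance between Kcnip2 and Kcnd2 was examined as the ratio of their CPM within each heart, which does not depend on library scaling. This ratio was chosen after its values were seen, among 36 pairs of the 9 genes. It was 9.89, 10.1, 8.71 and 7.47 in control sham hearts and 8.81, 8.08, 7.26 and 10.99 in control TAC hearts, so it stayed in one range although both genes were far lower in TAC replicates 1 and 2. In Trbp-cKO sham hearts it was 18.9, 21.3, 25.3 and 16.9 and in Trbp-cKO TAC hearts 28.7, 25.9, 25.7 and 22.2. Every Trbp-cKO heart was above every control heart under the same surgery, including Trbp-cKO TAC replicate 4, whose levels of both genes were low. The mean ratio of controls was 9.05 ± 1.22 (SD, n = 4) after sham surgery and 8.78 ± 1.60 after TAC, and that of Trbp-cKO hearts 20.6 ± 3.61 and 25.6 ± 2.65.

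The ratio was 2.27-fold higher in Trbp-cKO sham than control sham hearts and 2.94-fold higher in Trbp-cKO TAC than control TAC hearts, each with an exact two-sided permutation p of 0.0286 and, over the 144 tests of 36 pairs in 4 comparisons, an adjusted p of 0.114, the lowest that any pair reached. It therefore did not pass correction. Of the 36 pairs, 15 did not overlap between the sham genotypes and 16 between the TAC genotypes. With TAC, 5 did not overlap in Trbp-cKO hearts and 0 in controls. Each of these had the same p of 0.0286, the smallest that 4 hearts against 4 can give. The test thus did not set this ratio apart from them. For Kcnip2 over Kcnd2, leaving out each heart gave 2.11 to 2.42 and 2.77 to 3.18, and leaving out control TAC replicates 1 and 2 gave 2.86. With TAC the ratio was 0.967-fold in control hearts, where leaving out each heart gave values on both sides of 1 (0.893 to 1.03), and 1.25-fold in Trbp-cKO hearts, both overlapping. As background, Kcnip2 over each of 18902 other genes was higher without overlap for 50.2% of them in the sham comparison and 15.2% in the TAC comparison. Kcnd2 over each of the same genes was lower without overlap for 42.4% and 1.95%.

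**Figure D4:**
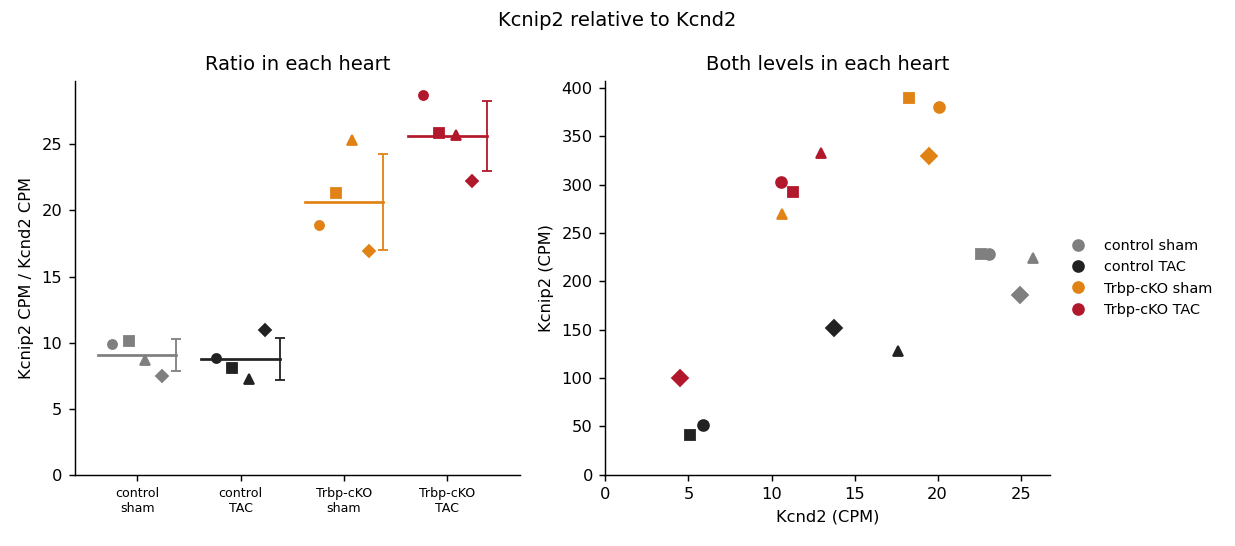
Left, ratio of Kcnip2 to Kcnd2 CPM in each heart with the group mean (line) and SD (bar). Right, Kcnip2 against Kcnd2 (CPM), with groups by colour and replicates 1 to 4 as circle, square, triangle and diamond. Control hearts lie between 7.26 and 10.99 in the ratio and Trbp-cKO hearts between 16.9 and 28.7.

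A second pair chosen after its values were seen was Hcn2 over Hcn4, which was 2.83-fold higher in Trbp-cKO sham than control sham hearts, 10.6-fold higher between the TAC genotypes and 3.95-fold higher with TAC in Trbp-cKO hearts, with an exact permutation p of 0.0286 and an adjusted p of 0.114 each. As background, Hcn2 over each of the 18902 other genes was higher without overlap for 27.4%, 47.2% and 3.18% of them in these 3 comparisons, and Hcn4 was lower for 78.3%, 7.59% and 60%. Kcnip2 over Hcn2 overlapped in all 4 comparisons, with folds of 0.885, 1.19, 1.04 and 0.771. These pairs share genes and are not independent of each other.

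The genes whose pattern over the 16 hearts was most like that of the 3 called genes were sought among 12959 genes, by the root mean square difference between log2 CPM centred on each gene's mean. Nearest to Kcnip2 was Hcn2, at 0.27 log2 units, followed by Gm6416 (0.30) and Ppp1r14c (0.31), where Kcnip2 itself varied by 0.95 about its mean and the median distance of all genes was 0.96. Nearest to Hcn2 were Ehbp1 (0.23), Pip5k1b (0.25) and Ndnf (0.25), against its own deviation of 0.76. Nearest to Kcnj2 were Mmp15 (0.24), Adam11 (0.25) and Stard10 (0.25), against 0.56. Among the 9 genes, Kcnq1 and Kcnh2 were the closest pair, at 0.24.

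The wider family held 68 other potassium and HCN channel genes, of which 67 could be tested. In control TAC against control sham hearts 0 rose and 3 fell past both thresholds, with a family median of -0.01, and the 3 of 67 compare with 3.75% of all genes tested. These were Kcnv2, an electrically silent Kv8.2 subunit (-1.95 ± 0.41 SE, adjusted p = 0.0136), Kcne1, the partner subunit of the Kcnq1 pore (-1.48 ± 0.37, adjusted p = 0.0301), and Kcng2, another silent subunit (-0.87 ± 0.22, adjusted p = 0.0298). No gene of the family was called here without control TAC replicates 1 and 2. In the sham comparison of the genotypes Kcne5, an auxiliary subunit, rose (1.32 ± 0.31, adjusted p = 0.0422), from 0.13 to 0.41 CPM in control sham to 0.59 to 0.93 in Trbp-cKO sham hearts, and none fell. This 1 gene of 67 compares with 0.967% of all genes. The call of Kcne5 was lost in 12 of the 16 fits that each left out 1 heart, with the clock score in the fit and without a filter on low counts, and no gene of the family was called when 1 CPM was required in 4 or more hearts.

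Between the TAC groups 0 of the 67 rose and 3 fell past both thresholds, Kcnv2 (-1.74 ± 0.43 SE, adjusted p = 0.0296), Kcnk4 (-1.21 ± 0.30, adjusted p = 0.0306) and Kcnrg (-1.04 ± 0.28, adjusted p = 0.0441). The family median was -0.15, and the 3 of 67 compare with 2.46% of all genes. None of the 67 was called without Trbp-cKO TAC replicate 1 or without replicate 2. With TAC in the Trbp-cKO hearts 1 rose, the auxiliary subunit gene Kcne4 (1.21 ± 0.28, adjusted p = 0.012), and 7 fell, 8 of 67 against 5.57% of all genes. The largest falls were Kcnv2 (-2.76 ± 0.43, adjusted p = 0.000826), Kcnj3, the GIRK1 pore opened by G proteins (-2.13 ± 0.41, adjusted p = 0.00335), and Kcne5 (-1.497 ± 0.311, adjusted p = 0.00576). The other falls included Kcnk4 (-1.23), Kcna2 (-0.89) and Kcna6 (-0.88). Kcnv2 was 7.43 to 11.5 CPM (sham) and 0.76 to 5.00 (TAC) among controls and 5.15 to 5.66 (sham) and 0.35 to 1.10 (TAC) among Trbp-cKO hearts.

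Several of the more abundant channels of the family did not pass in any of the 4 comparisons. Kcnk3, the two-pore TASK-1 channel, was 43.1 CPM per kilobase over all hearts, and Abcc9 and Kcnj11, a subunit and the pore of the channel closed by ATP, were 25.9 and 13.9. In control TAC against control sham hearts their log2 fold changes were -0.79 for Kcnk3 (adjusted p = 0.125), -0.83 for Abcc9 (adjusted p = 0.0631) and -0.74 for Kcnj11 (adjusted p = 0.208). These were close to the median of -0.80 of the 9 genes, so a log2 fold change of that size was not limited to the 9. Hcn3, another gene of the HCN family, was low at 0.20 to 0.60 CPM over the 16 hearts and did not pass.

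**Figure D5:**
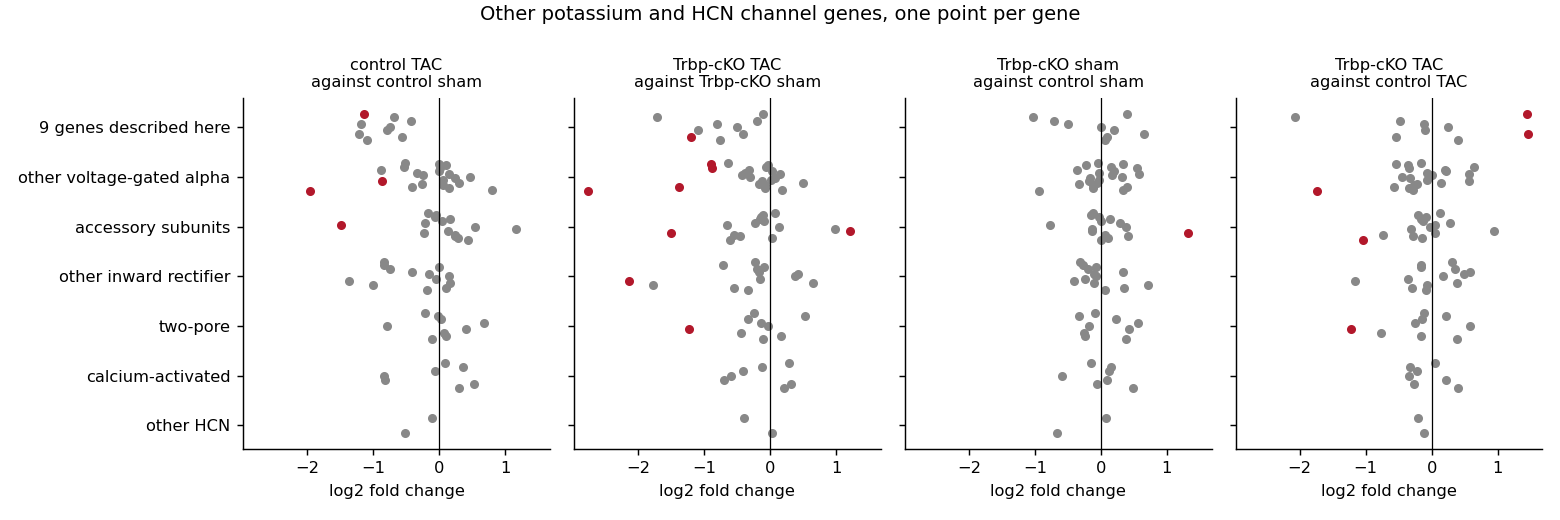
Log2 fold change (x axis) of every tested potassium or HCN channel gene in the 4 comparisons, 1 point per gene, by family. Red marks genes past both thresholds. The 9 genes have a median of -0.80 in control TAC against control sham hearts, where the other 67 have a median of -0.01. Among the 67 the abundant Kcnk3, Abcc9 and Kcnj11 lie close to the median of the 9 genes there.

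Transcription factors of the conduction and repolarisation programmes were listed as 20 genes, of which 18 were tested. In 1 of the 4 comparisons 1 of the 18 passed both thresholds, against 5.57% of all genes: Shox2, a sinoatrial node factor, rose with TAC in the Trbp-cKO hearts (1.496 ± 0.309 SE, adjusted p = 0.00563), at 0.64 to 0.94 against 0.18 to 0.41 CPM. Hey2, a ventricular repressor, passed the adjusted p alone there (-0.64 ± 0.16, adjusted p = 0.0169). Isl1 had no count in any heart. Klf15, a known activator of Kcnip2, was 7.59 to 40.3 CPM in control TAC hearts, with replicates 1 and 2 lowest, and did not pass in any comparison.

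Markers of other cells moved with the groups, and their part in the channel results was not tested. Summed CPM of the 8 atrial genes was 27.4 to 32.2 (sham) and 33.5 to 65.7 (TAC) among controls and 32.5 to 41.8 (sham) and 53.7 to 127 (TAC) among Trbp-cKO hearts, and 2 of the 5 tested, Myl4 and Dkk3, were higher in the TAC hearts of the Trbp-cKO group than of controls. Summed CPM of the 9 conduction system genes was 172 to 196 in both sham groups, 199.95 to 271 in control TAC and 184 to 275 in Trbp-cKO TAC hearts. The 8 fibroblast genes summed to 825 to 971 (sham) and 1193 to 2146 (TAC) among controls and 1133 to 1381 (sham) and 2122 to 3889 (TAC) among Trbp-cKO hearts. The 6 endothelial genes summed to 701 to 817 in control sham hearts, and control TAC replicates 1 and 2 were at 1399 and 1540 against 753 and 721 in replicates 3 and 4. In Trbp-cKO hearts they summed to 647 to 1140 (sham) and 622 to 1068 (TAC). The 6 smooth muscle and pericyte genes summed to 824 to 995 in control sham and 1069 to 1314 in Trbp-cKO sham hearts, without overlap, and to 724 to 1013 and 857 to 1347 after TAC. The 8 nerve and Schwann genes summed to 192 to 251 (sham) and 213 to 306 (TAC) among controls and 228 to 269 (sham) and 233 to 359.8 (TAC) among Trbp-cKO hearts. The sums of the macrophage and erythroid genes overlapped between all groups. The load markers Nppa (log2 fold change 2.00, adjusted p = 0.00109) and Nppb (1.09, adjusted p = 0.0229) rose with TAC in control hearts and rose with TAC in Trbp-cKO hearts by 3.29 and 2.88.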

How the data were processed

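RNA was sequenced from 16 mouse ventricles, 4 biological replicates in each of 4 groups. The deposited values are whole-number counts per gene, which the authors made from paired-end reads. Submitters' processing notes name Cutadapt 2.3, FastQC, HISAT2 2.1.0, StringTie 1.3.4 and GRCm38. The prepDE script of StringTie derives counts from coverage and an assumed read length, which like the annotation release and strandedness was not given in the sources used here. Symbols from GENCODE M21 matched 55480 of 55573 identifiers. No pair of libraries was identical.

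Counts of all 16 hearts were fitted with edgeR 4.0.16 in R 4.3.3 (robust quasi-likelihood test, TMM scaling, filterByExpr), which left 19955 genes, and p-values were adjusted over these by Benjamini-Hochberg. A call required an adjusted p of at most 0.05 and a log2 fold change of at least 0.8 in size. The SE was the log2 fold change divided by the root of F. The spread was estimated over all 4 groups, so leaving out a heart can change the adjusted p of a comparison it is not in. CPM used TMM-adjusted library sizes, and log2 CPM a prior count of 2. Single values were compared by an exact two-sided permutation test over 70 assignments. DESeq2 1.42.0, the edgeR exact test, other filters, scalings, thresholds and covariates, counts divided by 2, and leaving out hearts were alternatives.

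The 9 genes and all lists were chosen with earlier results of these data known. Named besides these were the deleted gene, from the other channel and regulator lists those past the adjusted p (up to 3 largest rises and 3 largest falls per comparison) and the most abundant per length (up to 3 per list), and the 3 genes nearest in pattern to each called gene. Clock, hypertrophy and cell marker lists were counted. Outside the rule above Dbp, Arntl, Nppa, Nppb, Myl4, Dkk3, Sln and Bmp10 were named from these lists. Irx4 and Isl1 were named as well. Some genes of these lists are counted but not reported here by name.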

Additional observations from a re-analysis of the deposited data

Results flagged for a closer look

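In 3 of 40 groups of 4 hearts examined, the gap between an extreme heart and its neighbour took a larger share of the group's range than Dixon's 95% limit, which chance gives in about 1 group in 20. Kcnip2 in control sham hearts was flagged for replicate 4 at 186 CPM against 224 to 229 in the others, with a share of 0.89. Kcnj2 in control TAC hearts was flagged for replicate 3 at 18.4 CPM against 14.9 to 15.4, with a share of 0.872. Kcnh2 in Trbp-cKO sham hearts was flagged for replicate 3 at 41.3 CPM against 70.01 to 72.14, with a share of 0.931.

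In the interaction of deletion and TAC 2 of the 67 other channel genes tested were called by edgeR, both below 0, against 0.872% of all genes tested. Kcna2, a Kv1.2 pore and 1 of these 2, had an interaction of -0.88 ± 0.19 (SE, log2) with an adjusted p of 0.0416. Controls had 6.66 ± 0.90 CPM (SD, n = 4) after sham surgery and 6.62 ± 1.00 after TAC, and Trbp-cKO hearts 8.40 ± 1.23 and 4.53 ± 0.18. The call was lost in at least 11 of the 16 fits that each left out 1 heart, in which 0 of the 67 passed: those without control sham replicate 1, 3 or 4, control TAC replicate 1 or 2, Trbp-cKO sham replicate 2, 3 or 4, or Trbp-cKO TAC replicate 1, 2 or 3. None of the 67 passed either without control TAC replicates 1 and 2 together, with the clock score in the fit, with library size scaling or without a filter on low counts. The cause was not tested.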

How the results depend on the processing

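Leaving out 1 heart at a time, the call of Kcnj2 with TAC in Trbp-cKO hearts was kept in all 16 fits, and that of Kcnip2 between the TAC genotypes was lost in 12 of 16. The count of called genes among the 9 was 0 to 5 with TAC in controls, 0 to 0 for the sham genotypes, 1 to 2 for the TAC genotypes, 1 to 2 with TAC in Trbp-cKO hearts and 0 to 0 for the interaction. Among the 67 other channel genes tested it was 0 to 8, 0 to 1, 0 to 4, 6 to 9 and 0 to 3 in the same order. The share of all genes called was not counted in the refits here or below.

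With no threshold on the fold change the 9 genes gave 2 calls with TAC in controls and 2 with TAC in Trbp-cKO hearts, and the other channels 5 between the TAC genotypes. With a threshold of 1, or with library size scaling alone, the interaction gave 0 calls among the other channels. With library size scaling the median of all genes moved by 0.10 in the sham genotypes and 0.14 in the TAC genotypes. Without a filter on low counts the 9 genes gave 1 call between the TAC genotypes and the other channels gave 0 in the sham genotypes, 1 in the TAC genotypes and 0 in the interaction. With at least 1 CPM in at least 4 hearts the other channels gave 5 with TAC in controls, 0 in the sham genotypes and 1 in the TAC genotypes.

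Fitting only the groups compared, the 9 genes gave 0 calls with TAC in controls, 1 in the sham genotypes (Hcn4), 0 in the TAC genotypes and 2 with TAC in Trbp-cKO hearts (Kcnj2 and Kcnh2), and the other channels gave 1, 2 and 0 in the first 3. The edgeR exact test gave 3, 1, 1 and 3 for the 9 genes and 5, 2 and 1 for the other channels in the first 3. DESeq2 gave 3 for the 9 genes with TAC in controls and 3 between the TAC genotypes (Hcn4 added), and 6 in the former and 5 in the latter for the other channels. With the clock score in the fit the 9 genes gave 0 with TAC in controls and 1 between the TAC genotypes, and the other channels gave 0, 0 and 3 with TAC in controls, in the sham genotypes and with TAC in Trbp-cKO hearts, and 0 in the interaction. With the cardiomyocyte score the 9 genes gave 0, 1 (Kcnip2), 3 (Hcn4 added), 3 (Kcnh2 and Hcn4 added) and 1 (Hcn4) with TAC in controls, in the sham genotypes, in the TAC genotypes, with TAC in Trbp-cKO hearts and in the interaction, and the other channels gave 1 with TAC in controls, 3 in the sham genotypes, 5 in the TAC genotypes and 6 in the interaction. Without control TAC replicates 1 and 2, chosen after seeing the data, the 9 genes gave 0 with TAC in controls and 3 with TAC in Trbp-cKO hearts, and the other channels gave 0 in the former and in the interaction. The cause of these moves was not tested.

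The labels do not say whether the replicate numbers pair the hearts, and the main fit used no pairing. The correlation of deviations between hearts of the same number ran from -0.43 to 0.21. Some hearts correlated best with their own number and others did not, which does not exclude a pairing. With the replicate block the 9 genes gave 0 calls with TAC in controls (adjusted p = 0.0628 for Hcn2) and 1 between the TAC genotypes (Hcn2, with Kcnip2 at 1.47 and an adjusted p of 0.111), and the other channels gave 0 in the sham genotypes, 0 in the TAC genotypes and 0 in the interaction.

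Sign changed only for log2 fold changes that were not past both thresholds. With the cardiomyocyte score these were Hcn4 with TAC in controls (0.15), Kcnh2 between the TAC genotypes (0.029), Hcn2 with TAC in Trbp-cKO hearts (0.0097) and the interactions of Kcnd2 (-0.060) and Kcnq1 (-0.053). Those without control TAC replicates 1 and 2 were Hcn4 with TAC in controls (0.14), Kcnd3 in the sham genotypes (-0.0025), Kcnd3 (-0.0088) and Kcnq1 (-0.30) between the TAC genotypes, and the interactions of Kcnd2 (-0.19), Kcnd3 (-0.0062) and Kcnq1 (-0.36). With the clock score they were Kcnd3 (-0.29) and Kcnq1 (-0.12) in the sham genotypes and Kcna5 with TAC in Trbp-cKO hearts (0.16). With DESeq2 it was Kcnd3 in the sham genotypes (-0.0055), and with library size scaling Kcnd2 (0.018) and Kcnh2 (0.027) between the TAC genotypes. Leaving out 1 heart gave a change of sign for Kcnd3 (-0.051 to 0.073), Kcnj2 (-0.016 to 0.19) and Kcnq1 (-0.051 to 0.24) in the sham genotypes, Kcnd2 (-0.35 to 0.24) and Kcnh2 (-0.42 to 0.33) between the TAC genotypes, Kcna5 (-0.47 to 0.10) and Hcn2 (-0.27 to 0.093) with TAC in Trbp-cKO hearts, and the interactions of Kcna5 (-0.042 to 0.53) and Kcnh2 (-0.61 to 0.13).

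With 4 hearts a group an exact permutation test cannot go below 0.0286, and Hcn4 had 6 to 324 counts per heart, the fewest of the 9 genes.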
